A study of Coprinopsis cinerea with 7 samples.

Results

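Among the 120537 windows of 300 bp into which the genome of the ink cap mushroom Coprinopsis cinerea was divided, 3458 windows (2.87%, 1037.4 kb) held a clearly larger share of the input reads in one deposited table of read counts than in a second one. The first is called the primary table here. The second, whose name refers to multiple mapped and unique reads, is called the multi-mapped table. Windows were chosen by r, the log2 of a window's share of the input counts in the primary table (the sum of both input columns plus 1, over the column total) divided by the same share in the multi-mapped table, and all windows with r over 0.5 were kept. The 2 input columns of both tables therefore chose the windows. Their values, and every comparison that has input in it, are given as descriptions of the chosen windows beside all windows, and nothing is inferred from a difference between the chosen windows and the rest.

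The material was genomic DNA of oidia, the asexual spores of the fungus, all at this one stage, with no treatment named in the labels. The immunoprecipitated DNA (IP) was pulled down with a non-commercial antiserum against cytosine-5-methylenesulfonate (CMS), the bisulfite product of 5-hydroxymethylcytosine, and the input was DNA of the same stage with no antiserum. By the labels there are 5 IP libraries, made as 3 technical replicates from one biological replicate and 2 from the other, and each biological replicate has 1 input library (2 in all). Each table holds 2 IP columns and 2 input columns with the tags 1_1 and B_1, which no label ties to a biological replicate, so p-values measure only the spread between these columns.

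5-Methylcytosine in fungal DNA is oxidised by enzymes of the TET/JBP family, which basidiomycetes such as this mushroom carry in many copies. In these fungi cytosine methylation is known mainly from transposons and other repeated DNA. A short read from a repeat can match several places in the genome, and read counts over repeats depend on whether such reads are dropped, placed once or shared among the copies. No genome sequence was used here, so the repeat content of the windows was not analysed.

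Summed over all windows, IP 1_1 had 106176723 counts and IP B_1 67181684 in the primary table, against 36059418 for input 1_1 and 36233140 for input B_1. The multi-mapped table was shallower, with 24990768 and 19994333 counts in IP (1_1 first), against 28735765 and 27600179 in input. Its highest count in any window and column was 1071, whereas a single input column of the primary table reached 44853. Within the over-represented windows the multi-mapped counts amounted to 12.5% and 16.1% of the primary counts in the IP columns, against 43.4% and 41.6% in the inputs. Over all windows the shares were 23.5% and 29.8% in IP, against 79.7% and 76.2% in input.

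The columns of a pair also stood apart in these windows. After scaling, input B_1 was below input 1_1 in 83.3% of the over-represented windows by primary and in 85.6% by multi-mapped counts, where over all windows B_1 was the higher one in 49.2% and 49.7%. IP B_1 was below IP 1_1 in 81.4% of them in the primary table and in 66.6% in the multi-mapped table. The chi-square per degree of freedom between the columns of a pair was 26.3 for IP and 6.61 for input in the over-represented windows of the primary table, against 9.69 for IP and 1.89 for input over all windows. The multi-mapped input pair differed by less than counting noise over all windows (0.916) but not in the over-represented ones (1.78), so the inputs were kept as 2 samples. The part of this difference between columns in the results below was not tested, and values without each column are given beside the counts.

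Most of the windows lay close to the threshold, and a small group lay far above it. The median r was 0.58, against 0.10 over all windows, and 2085 of the 3458 windows (60.3%) had r of at most 0.6. Only 139 exceeded 1, and 22 exceeded 3. The threshold cut through a continuous distribution, with 1267 windows between 0.5 and 0.55 and 1919 between 0.45 and 0.5. The nearest windows above it began at 77101 on chromosome 11, at 807601 on chromosome 12 and at 365101 on chromosome 6, each with r of 0.50 and with 1371, 1097 and 1460 primary input counts. The nearest below it began at 564301 on chromosome 3, at 316501 on chromosome 5 and at 2096101 on chromosome 8, also with r of 0.50 when rounded and with 1144, 1320 and 1046 primary input counts. The median counting error of r was 0.0705, and in 974 windows r exceeded the threshold by more than 1.96 such errors. These errors cover counting only and take the tables as independent, although they may hold the same libraries. Since r also chose the windows, the 974 is a description and not a test. Together the chosen windows held 7.61% of the input counts in the primary table and 4.15% in the multi-mapped table. The 22 windows with r over 3 alone held 1.09% of the primary input counts, against 0.0556% in the multi-mapped table.

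**Figure D1:**
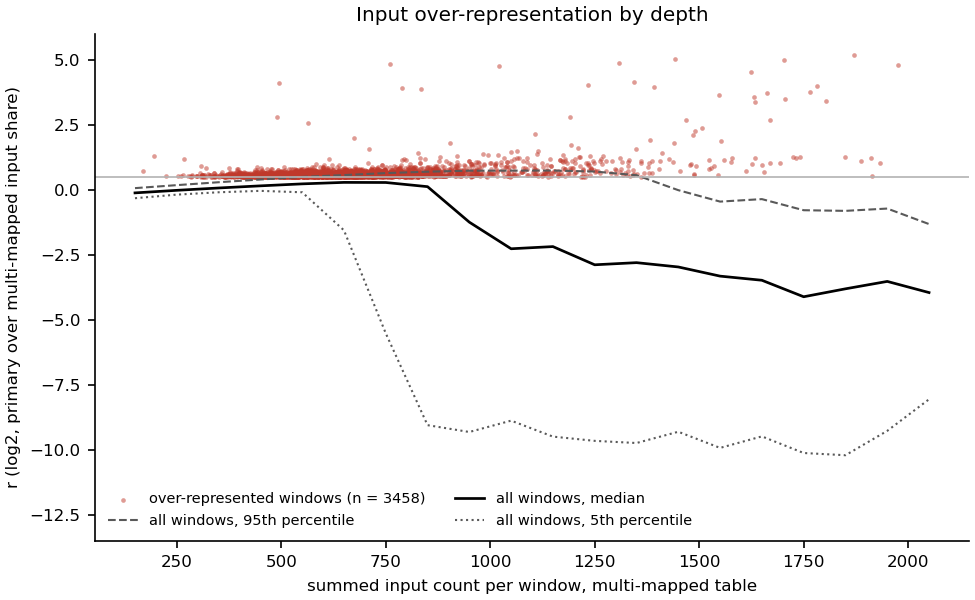
Each point is 1 over-represented window, with r on the vertical axis (log2) against the summed count of both inputs in the multi-mapped table, and the lines give the median, the 5th and the 95th percentile of all windows in bins of that count. Most points lie just above the threshold of 0.5, while the median of all windows is -2.29 at 800 or more counts.

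The ratio between the tables was also high in the IP columns, which the choice did not use. Computed from the summed IP columns, the same ratio had a median of 0.47 in the over-represented windows, with quartiles of 0.39 and 0.58, against 0.08 over all windows. It exceeded 0.5 in 1431 of them (41.4%), against 2292 of the 117079 other windows (1.96%). It was above 0 in 3454 of them and below 0 in 4, where its quartiles over all windows were -0.07 and 0.22. By column, the median was 0.49 in IP 1_1 and 0.41 in IP B_1. Across the 3458 windows the input and IP ratios had a Pearson r of 0.86 and a Spearman rho of 0.49, as a description, since neighbouring windows may share reads and the tables may hold the same libraries.

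Each input column also gave most of the windows that the other chose. Of 3811 windows with a ratio over 0.5 in input 1_1 alone, 2478 (65.0%) were over 0.5 in input B_1, where 2.89% of all windows were. Of 3482 windows chosen on input B_1 alone, 71.2% were over 0.5 in input 1_1, where 3.16% of all windows were. In all of the 3458 windows the ratio was above 0 in both inputs, and in 2478 it was above 0.5 in both. Since r comes from the sum of these inputs, both counts are set in large part by the choice. Of all windows, 73.0% had r over 0.

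IP over input in the over-represented windows is a description, since a high primary input is part of how they were chosen, and nothing is read from its medians and shares. In the primary table the log2 fold change of IP over input had a median of -0.12 and quartiles of -0.23 and 0.08, against a median of -0.01 over all windows tested. By multi-mapped counts the median was -0.01, against -0.02 over all windows. By edgeR's quasi-likelihood test at a Benjamini-Hochberg adjusted p under 0.05, 292 of the 3458 windows (8.44%) were higher in IP in the primary table, where 8.75% of all windows tested were. Another 62 (1.79%) were lower, where 0.640% of all windows were. With multi-mapped counts, 157 (4.54%) were higher and 15 (0.434%) lower, where 7.00% and 0.816% of all windows were. DESeq2 called 412 (11.9%) higher and 28 (0.810%) lower in the primary table, where 7.49% and 0.176% of all 120537 windows were, and 281 (8.13%) higher in the multi-mapped table, where 5.63% were. The share called higher was thus below that of all windows in this edgeR fit and above it in DESeq2, on all columns of both tables. An edgeR fit with the column tag as a replicate block gave 14.1% higher in the primary table, where 12.3% of all windows were. In the multi-mapped table it gave 3.64%, where 6.59% were. At least a 2-fold difference was reached by 57 higher windows by primary and 1 by multi-mapped counts. Of all 120537 windows, 2152 and 528 were called higher with such a difference. The lowest log2 fold change of the set was -0.61 by primary and -0.34 by multi-mapped counts, so none of its windows was lower by 2-fold. Over all windows 0 were called lower by 2-fold in either table. Both tables called 125 windows of the set higher, which is 42.8% of its primary calls and 79.6% of its multi-mapped ones. Both called 5 lower, and 0 were higher in one and lower in the other. The tables may hold the same libraries, and no count of shared calls over all windows is given beside these. In the authors' deposited tables at an adjusted p under 0.05, 139 (4.02%) of the windows were higher in IP in the primary table, where 3.26% of all windows with a p-value were. By the authors' deposited calls for the multi-mapped counts, 118 (3.41%) were, where 3.21% of all windows were. Neither deposited table had any of them lower. Over all windows the authors called only 2 lower by primary and 0 by multi-mapped counts, so nothing is read from this absence.

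The split between higher and lower windows depended on the scaling and on single columns. Scaling by library totals rather than by TMM moved the median over all windows to -0.16 (primary) and -0.10 (multi-mapped) on the log2 scale, and 162 windows (4.68%) were higher and 534 (15.4%) lower in the primary table, where 5.44% and 6.25% of all windows were. By multi-mapped counts 102 (2.95%) were higher and 173 (5.00%) lower, where 4.90% and 5.33% of all windows were. Leaving out IP 1_1 gave 488 higher (14.1%) and 1157 lower windows (33.5%) in the primary table, where 14.5% and 9.11% of all windows were. Without IP B_1 there were 503 higher (14.5%) and 95 lower (2.75%), where 12.3% and 4.80% of all windows were. Leaving out input 1_1 gave 103 higher (2.98%) and 1 lower (0.0289%), where 4.82% and 0.0407% were. Leaving out input B_1 gave 59 higher (1.71%) and 42 lower (1.21%), where 3.80% and 0.130% were. In the primary table the share of lower windows thus exceeded that of all windows with library totals and when IP 1_1 or input B_1 was left out, and not when IP B_1 or input 1_1 was.

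Multi-mapped counts gave 586 higher (16.9%) and 28 lower windows (0.810%) when IP 1_1 was left out, where 12.7% and 0.723% of all windows were. When IP B_1 was left out, 429 were higher (12.4%) and 0 lower, where 7.92% and 0.2497% of all windows were. When input 1_1 was left out, 57 were higher (1.65%) and 0 lower, where 3.44% and 0.295% were, and when input B_1 was, 18 (0.521%) and 11 (0.318%), where 2.80% and 0.210% were. In both tables the share of higher windows was below that of all windows when an input was left out. In the fits with 0 lower windows, 31 (IP B_1 left out) and 35 (input 1_1 left out) were lower at an unadjusted p under 0.05 in edgeR, and DESeq2 on all columns called 0 lower in the multi-mapped table. Windows chosen on 1 input column and compared with IP through the other one, an alternative added after seeing the data, had a median log2 fold change of -0.00 (chosen on 1_1) and -0.16 (chosen on B_1) in the primary table. These medians were 0.06 and -0.08 in the multi-mapped table. The median of the set relative to all windows thus changed with the input column that it was read against.

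IP over input differed by depth. The share of windows with r over 0.5 was 0.0697% at 100 to under 300 multi-mapped input counts (15 windows), 0.330% at 300 to under 400, 1.36% at 400 to under 500, 4.67% at 500 to under 600 and 12.5% at 600 to under 800, and it was 8.69% (615 windows) at 800 or more. No window with under 100 counts was chosen. In the primary table the over-represented windows with 300 to under 600 counts had median log2 fold changes between -0.14 and -0.16, against -0.02 to -0.04 for all windows of those depths. At 600 to under 800 counts the median was -0.13, against 0.04 for all windows.

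In the deepest windows the median was above 0, as it was for all windows of that depth. At 800 or more multi-mapped input counts the median log2 fold change was 0.35 in the primary table, against 0.43 for all windows of that depth, and 0.30 in the multi-mapped table, against 0.37. Of these 615 windows 165 (26.8%) were higher in IP in the primary table, where 37.3% of all windows of that depth were, and 33 (5.37%) in the multi-mapped table, where 12.5% were. None of the 615 was lower in the primary table by edgeR's quasi-likelihood test, where 0% of all windows of that depth were. Of the 615, 16 were lower at an unadjusted p under 0.05 in edgeR and 1 by DESeq2. With library totals 10 were lower, without IP 1_1 94 and without input B_1 2. Library totals left the median at 0.21 in both tables. The number of calls changed with each column. Leaving out IP 1_1 gave 301 higher windows by primary and 413 by multi-mapped counts, and leaving out IP B_1 gave 282 and 322. In contrast, leaving out input 1_1 gave 26 higher windows by primary and 0 by multi-mapped counts (19 at an unadjusted p under 0.05 in edgeR), and leaving out input B_1 gave 10 and 0 (3 at an unadjusted p under 0.05), while DESeq2 called 275 and 215. The medians kept their sign without each of the 4 columns, between 0.31 and 0.41 in the primary table and between 0.24 and 0.38 in the multi-mapped table. Finer bins, added after seeing the data, gave primary medians of 0.02 at 800 to under 900 counts, 0.35 at 900 to under 1000, 0.42 at 1000 to under 1200, 0.53 at 1200 to under 1600 and 0.61 at 1600 or more (27 windows). In the same bins the medians of all windows were 0.41, 0.45, 0.43, 0.45 and 0.42. The share of over-represented windows in these bins was 15.4%, 13.3%, 9.80%, 4.94% and 2.21%.

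**Figure D2:**
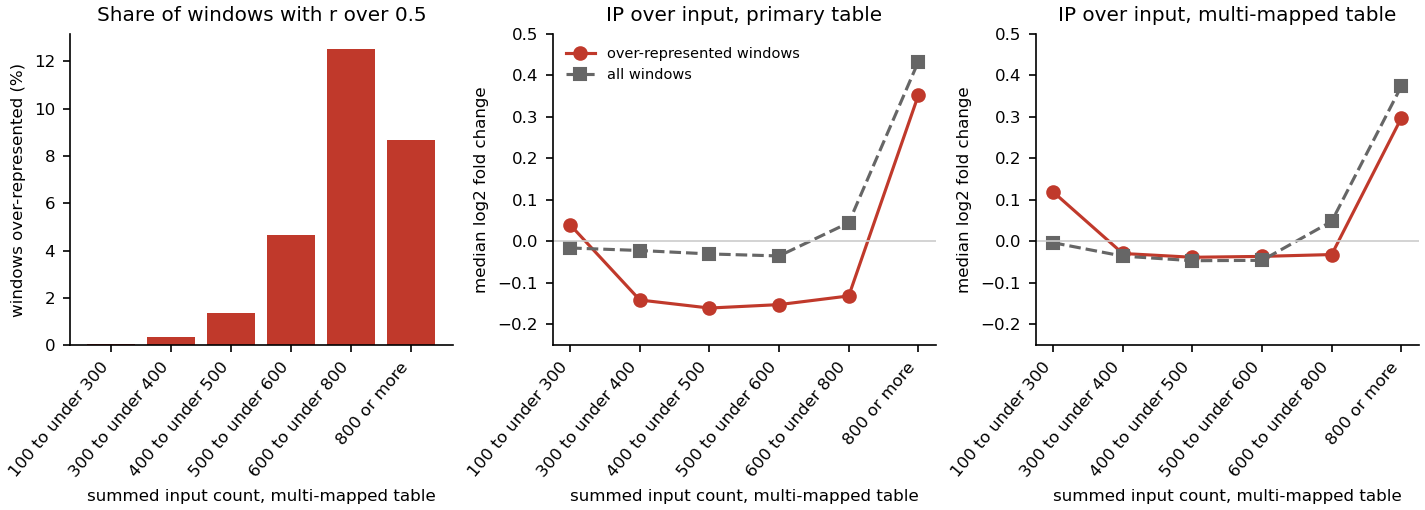
The left panel gives the percentage of windows that were over-represented in each bin of multi-mapped input count, and the other 2 panels give the median log2 fold change of IP over input in over-represented windows (circles) and all windows (squares) in each table. Of the bins drawn, 600 to under 800 counts has the highest share, 12.5%, while the finer bin of 800 to under 900 had 15.4%, and both lines reach their highest values in the deepest bin, 0.35 and 0.43 in the primary table.

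Along the sequences the windows fell into 1896 runs, a run being windows of the set at most 1 window apart. Of these, 973 were single windows, 699 were pairs, 111 held 3 windows and 113 held 4 or more. Runs of 1 or 2 held 2371 windows (68.6% of the set). The 14 runs of 10 or more held 257 windows, all on chromosomes, and 5 of the 14 lay within 100 kb of a chromosome end and 4 within 20 kb.

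Long and short runs differed in depth and in IP. Windows in runs of 4 or more had a median of 814.5 multi-mapped input counts and a median r of 0.66, and those in runs of 1 or 2 had 606 counts and 0.56. The ratio between tables in the IP columns had a median of 0.65 in the long runs and 0.45 in the short ones. In the primary table the median log2 fold change of IP over input was 0.29 in runs of 4 or more and -0.14 in runs of 1 or 2, and 189 (25.1%) and 83 (3.50%) of their windows were higher in IP. By multi-mapped counts the medians were 0.26 and -0.03, and 72 (9.55%) and 71 (2.99%) of the windows were higher. Over all windows these medians were -0.01 and -0.02, and 8.75% and 7.00% of the windows tested were higher. Of all windows at 800 to under 900 multi-mapped input counts, 41.4% and 26.4% were higher. At 600 to under 800 counts these shares were 25.1% and 20.7%. The runs were not matched for depth, so nothing is read from their shares. With library totals the medians of the long and short runs were 0.15 and -0.28 in the primary table and 0.18 and -0.12 in the multi-mapped table. Without each column in turn the median of the short runs lay between -0.24 and -0.04 in the primary table and between -0.09 and 0.03 in the multi-mapped table, and that of the long runs between 0.23 and 0.33 and between 0.21 and 0.33. In both tables the count of higher windows in the long runs fell when either input was left out and rose when either IP column was. DESeq2 on all columns called 287 (38.1%) of these windows higher in the primary table, where 7.49% of all windows were. In the multi-mapped table it called 210 (27.9%), where 5.63% were.

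In each of the 14 runs of 10 or more windows both IP columns lay above both inputs, in both tables. Their folds ranged from 1.25 to 1.73 with a median of 1.36 in the primary table, and from 1.19 to 1.38 with a median of 1.26 in the multi-mapped table. With library totals all 14 stayed above 1 in both tables, the lowest at 1.13 and 1.12. In the primary table, 177 of the 1672 runs of 1 or 2 windows had both IP columns above both inputs and 640 below. In the multi-mapped table these numbers were 264 and 429. Runs were not formed from the other windows. These counts of runs without overlap thus have no share over all windows beside them and are descriptions only.

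Around runs r stepped down over 2 windows, which the way of joining runs fixes in part. The median r was 0.56 inside runs of 1 or 2. The first window outside had a median of 0.33 on the left and 0.34 on the right, and the second 0.16 on both sides. The median log2 fold change in the primary table was -0.14 inside these runs, -0.07 in the adjoining window on either side and -0.04 and -0.03 in the second. The multi-mapped median was -0.03 inside and between -0.04 and -0.02 up to 1800 bp away. Inside runs of 4 or more, gaps included, the medians were 0.27 by primary and 0.25 by multi-mapped counts, and the adjoining windows were at 0.07 and 0.06 in the primary and at 0.09 and 0.11 in the multi-mapped table. The 2 windows next to a run cannot belong to the set, since runs join windows at most 1 window apart, and neighbouring windows may share reads.

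**Figure D3:**
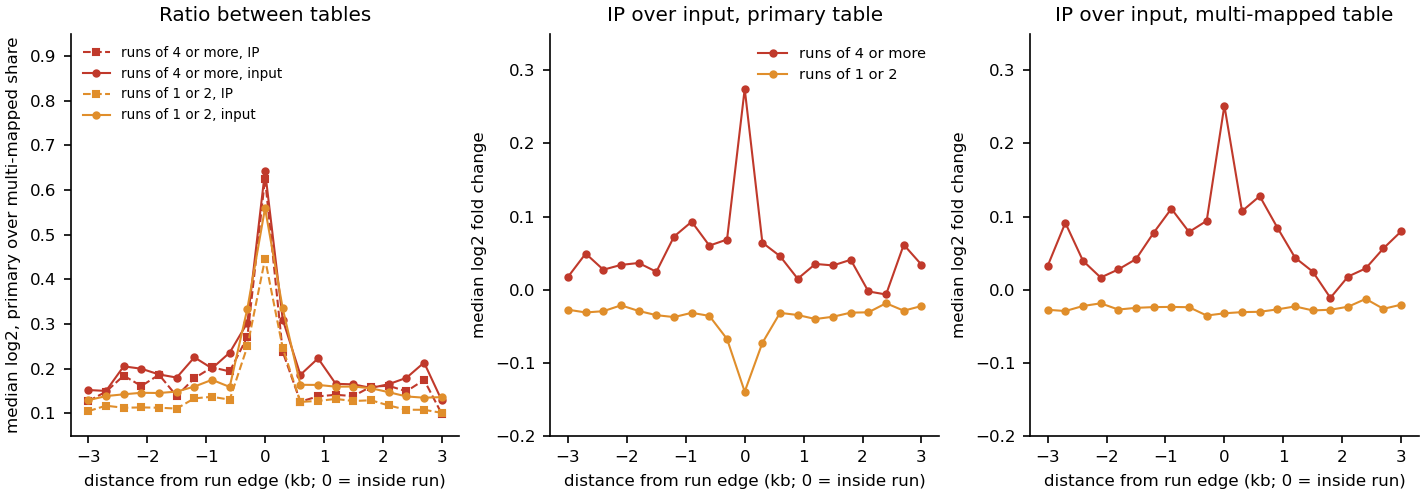
The left panel shows the median ratio between tables in IP (squares) and input (circles), and the other panels the median log2 fold change of IP over input in each table, by distance from the edge of a run in kb, for runs of 4 or more and of 1 or 2 windows. In the primary table the inside of long runs is at 0.27 and that of short runs at -0.14, and both approach the level of all windows within 1 kb.

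The longest run covered 10200 bp on chromosome 6 at 34801 to 45000, 34 windows over the gene models CC1G_13146, CC1G_13150 and CC1G_15488. It held 1335 and 1345 CPM (counts scaled to 1000000 per column after TMM) in IP (1_1 and B_1), against 1093 and 1053 CPM in input, in the primary table. Its multi-mapped values were 681 and 742 CPM in IP, against 591 and 584 CPM in input. IP lay above input without overlap in both tables, 1.25-fold and 1.21-fold, yet edgeR called only 1 of the 34 windows higher in each. Its input depth was 4.30 times the genome median in the primary table and 2.38 times in the multi-mapped table. In the 5 windows before it these depths were 0.349 and 2.28 times the median, and in the 5 windows after it 0.208 and 2.52 times. The run thus stood above its flanks in the primary table, and not in the multi-mapped table, where its flanks were about as deep.

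A run of 8700 bp began 13500 bp from the start of chromosome 8 (13501 to 22200; CC1G_13421, CC1G_13422 and CC1G_13450). It held 1515 and 1451 CPM in IP, against 1089.7 and 992 CPM in input in the primary table, 1.42-fold, with 10 windows called higher. The 5 windows after it had a median r of -5.30, with input at 0.0699 times the genome median in the primary table and 3.03 times in the multi-mapped table. On chromosome 11 a run of 8400 bp ended 3000 bp from the chromosome end (1943401 to 1951800; CC1G_08933 and CC1G_08934). It held 2068 and 2042 CPM in IP, against 1416 and 1241 CPM in input, 1.55-fold, and 842 and 947 CPM in IP, against 677 and 651 CPM in input in the multi-mapped table, 1.35-fold. Its input depth was 6.46 times the genome median by primary and 3.27 times by multi-mapped counts, and 15 and 2 of its 28 windows were called higher.

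**Figure D4:**
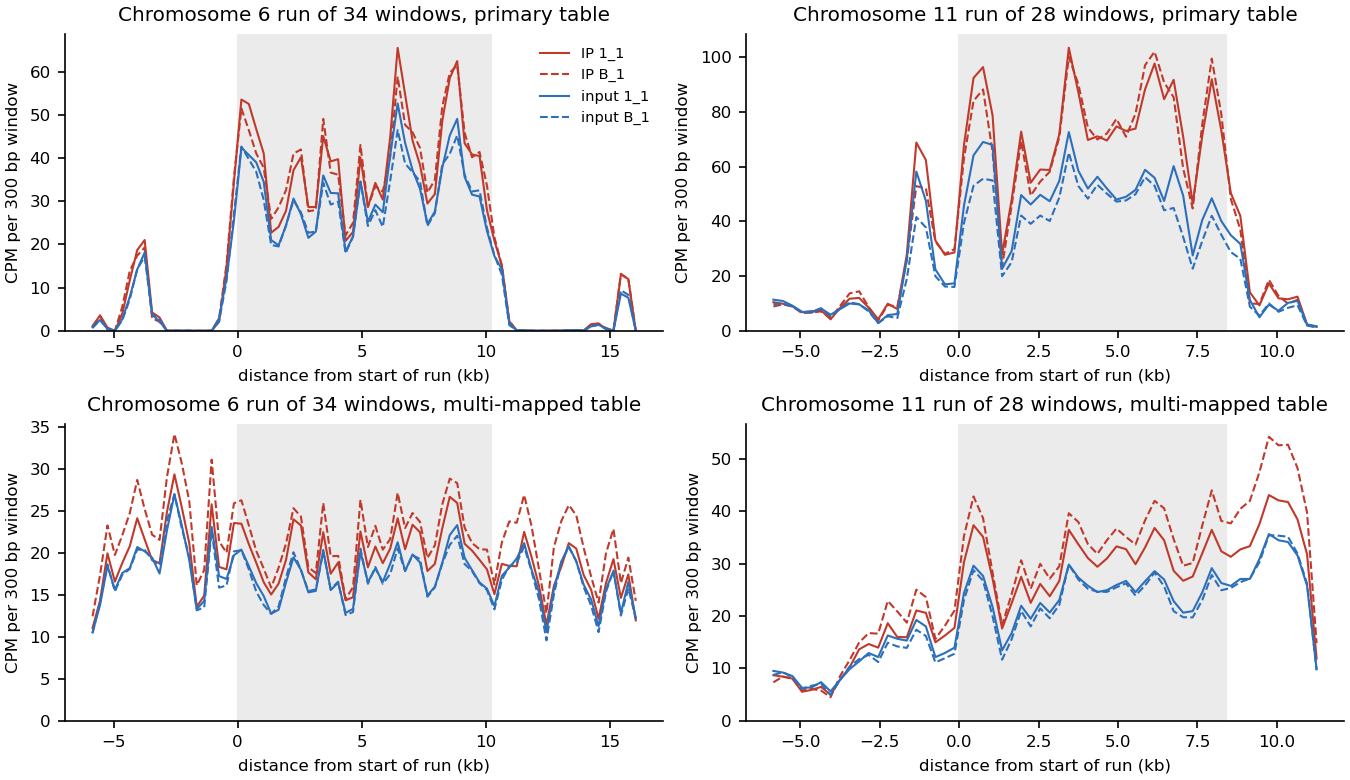
CPM per 300 bp window in both IP columns and both inputs along the longest run on chromosome 6 and the run near the end of chromosome 11 (shaded), by distance from the run's start in kb, in the primary table (top) and the multi-mapped table (bottom). On chromosome 6 the primary table falls to almost 0 within 2 kb of either edge of the run, whereas the multi-mapped table stays at the run's level; both IP lines lie above both inputs over the run sums.

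The other 5 of the 8 longest runs had the same order of IP and input. On chromosome 4 the run at 4201 to 9300 (CC1G_13118, CC1G_13119 and CC1G_13120) held 1009 and 1040.3 CPM in IP, against 612 and 576 CPM in input, in the primary table. At 1.73-fold it had the largest primary fold of these 8 runs, with 16 of 17 windows called higher, and it was 1.38-fold higher in the multi-mapped table, where 1 window was called. The run at 540001 to 544800 on chromosome 6 (CC1G_08712, CC1G_15540 and CC1G_15541) held 576 and 603 CPM in IP, against 372 and 353 CPM in input, with 13 windows called by primary and 12 by multi-mapped counts. The run on chromosome 10 at 8701 to 15900 lay over CC1G_13094 and was higher in IP by 1.503-fold by primary and 1.33-fold by multi-mapped counts. The runs on chromosome 5 at 654301 to 660600 (CC1G_13028, CC1G_13029 and CC1G_13030) and on chromosome 11 at 631801 to 636900 (CC1G_12891 and CC1G_12892) were 1.38-fold and 1.29-fold higher in the primary table and 1.26-fold and 1.23-fold in the multi-mapped table. In all 8 both IP columns exceeded both inputs in each table.

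The windows with the highest r were few and lay in short pieces. Of the 22 windows with r over 3, 8 lay on chromosome 6, 6 on supercont3.52, 5 on supercont3.58 and 3 on supercont3.64, supercontigs being short pieces of the assembly that are placed on no chromosome. None of the 8 on chromosome 6 lay in a gene model, and gene models of the supercontigs were not analysed here. The highest single window, on supercont3.52 at 301 to 600 (r of 5.18), held 140763 and 97645 counts in IP, against 42227 and 44853 counts in input, in the primary table. The multi-mapped counts were 948 and 911 counts in IP, against 940 and 931 counts in input. Its log2 fold change was 0.35 ± 0.48 (SE) in the primary table and 0.42 ± 0.24 in the multi-mapped table, and neither passed (edgeR adjusted p of 0.760 and 0.334).

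The other 4 of the 5 highest windows lay together on chromosome 6, at 91801 to 92100, 92101 to 92400, 92401 to 92700 and 93301 to 93600, with r between 4.85 and 5.01. Of these, only the window at 93301 passed, in the multi-mapped table (log2 0.52 ± 0.12 SE, edgeR adjusted p = 0.00121). There it held 414 counts in IP 1_1 and slightly fewer in IP B_1, against 382 and 378 counts in input, with both IP columns above both inputs. In the primary table it held 46305 and 32755 counts in IP, against 13133 and 14997 counts in input, without passing (log2 0.39 ± 0.32 SE, adjusted p = 0.562).

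No gene model overlapped the whole run of that region of chromosome 6, 91801 to 93600. It held 4503 and 4757 CPM in IP, against 3700.2 and 3711 CPM in input, in the primary table, 84.1 times the genome median in input. By multi-mapped counts it held 176 and 216 CPM in IP, against 143 and 141 CPM in input, 3.26 times the median. The fold was 1.25 by primary and 1.38 by multi-mapped counts. The first 1800 bp of supercont3.52 reached 86.1 times the median by primary and 3.99 times by multi-mapped counts, with folds of 1.17 and 1.33. The first 900 bp of chromosome 6 (r of 3.96) held 1027 and 1117 CPM in IP, against 775 and 833 CPM in input, 1.33-fold, and the 5 windows beyond had a median r of -1.35.

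Runs at both ends of supercont3.64, at 1 to 600 and 2701 to 3300 of its 3300 bp, had r of 3.24 and 3.90. Their folds were 1.38 and 1.28 in the primary and 1.23 and 1.34 in the multi-mapped table, where both windows of each were called higher. On supercont3.58 the run at 601 to 3600 (r of 2.94) held 3279 and 4205 CPM in IP, against 1996 and 2156 CPM in input. At 1.80 it had the largest primary fold of these 8 runs, and 2 of its 10 windows were called higher. A gap window inside it had r of -5.97, with 34 primary input counts beside neighbours of up to 25068. The runs on supercont3.52 at 2401 to 4200 and on supercont3.56 at 1 to 600 had r of 1.83 and 1.53 and folds of 1.18 and 1.28 in the primary table, with 0 windows called higher in either table by edgeR. After TMM scaling the IP columns of all 8 runs lay above the inputs without overlap in both tables. With library totals the columns overlapped in the primary table in the first 1800 bp of supercont3.52 and the first 600 bp of supercont3.56. Their primary folds were then 1.06 and 1.16.

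By edgeR, 1 of the 22 windows with r over 3 was higher in IP in the primary table (3 at an unadjusted p under 0.05) and 4 in the multi-mapped table (16 at an unadjusted p under 0.05). DESeq2 called 13 (59.1%) and 21 (95.5%) of the 22 higher, where 7.49% and 5.63% of all windows were. For all 139 windows with r over 1, edgeR called 29 (20.9%) higher by primary and 14 (10.1%) by multi-mapped counts. Of all windows tested, 8.75% and 7.00% were higher. It called 0 of the 139 lower in either table (0 also at an unadjusted p under 0.05 and by DESeq2). Only 0.640% and 0.816% of all windows tested were lower, so nothing is read from this 0 in 139 windows. The median log2 fold changes of the 139 were 0.40 and 0.38. DESeq2 called 76 (54.7%) and 86 (61.9%) higher, where 7.49% and 5.63% of all windows were. With an input left out, the share of the 139 called higher was below that of all windows in both tables. With an IP column left out it was above that of all windows. Leaving out input B_1 left 1 by primary and 0 by multi-mapped counts (8 at an unadjusted p under 0.05 in edgeR), and leaving out input 1_1 left 5 and 3. Leaving out IP 1_1 gave 80 and 136 higher and 1 lower (primary table), and leaving out IP B_1 gave 72 and 110 higher.

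Ranked without single windows, the highest primary folds belonged to runs of 2 to 5 windows with r between 0.55 and 0.88. With single windows included, the highest primary fold of a run was 11.3. Among runs of at least 2 windows the highest lay on chromosome 12 at 1874101 to 1874700, outside gene models, with 117 and 142 CPM in IP, against 22.9 and 18.5 CPM in input, in the primary table, 6.25-fold. Its multi-mapped values were 18.5 and 21.6 CPM in IP, against 15.2 and 13.3 CPM in input, a fold of 1.405. The next was on chromosome 5 at 2707501 to 2708100 within CC1G_08170, with 123 and 150.3 CPM in IP, against 33.6 and 30.1 CPM in input, 4.29-fold by primary and 1.31-fold by multi-mapped counts. A run without a gene model on chromosome 3 (484201 to 485400) was 4.05-fold higher by primary and 1.37-fold by multi-mapped counts. Its r was 0.88 in input and 2.37 in IP. The runs on chromosome 4 at 2049001 to 2050500 (CC1G_06404 and CC1G_06405) and chromosome 10 at 141001 to 141600 (CC1G_01512) were 3.81-fold and 3.52-fold higher in the primary table and 1.70-fold and 1.46-fold in the multi-mapped table. All windows of the 5 runs were called higher in the primary table, which their choice by primary fold favours. By multi-mapped counts edgeR called 0 of the 4 windows on chromosome 3 and 1 of the 2 on chromosome 5 higher. It called all windows of the runs on chromosomes 4, 10 and 12 higher by these counts. IP B_1 exceeded IP 1_1 in each of the 5 runs in both tables.

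**Figure D5:**
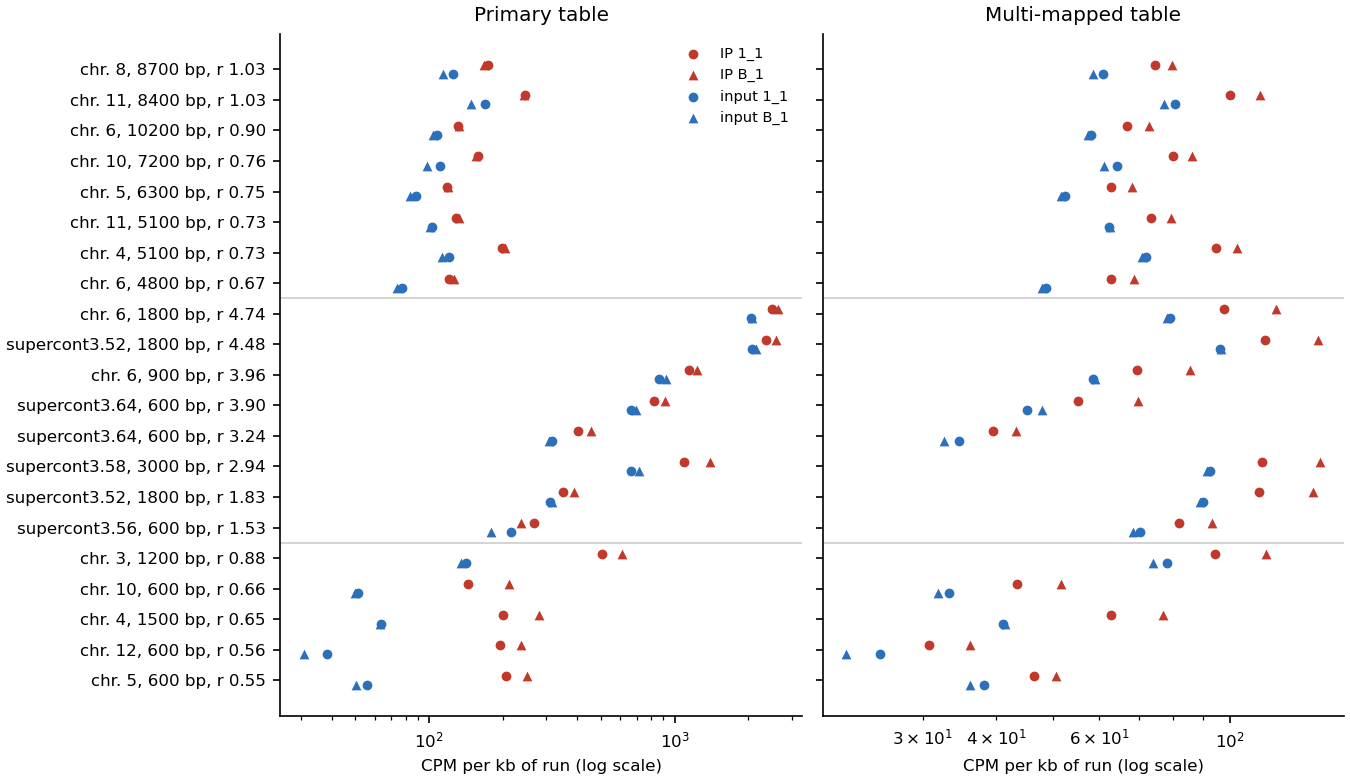
CPM per kb of run on log axes in both IP columns and both inputs, in the primary table (left) and the multi-mapped table (right). The 8 longest runs are at the top. Below them, among runs of at least 2 windows, are the 8 with the highest r (middle) and the 5 with the highest primary fold (bottom). All IP points drawn lie right of the input points of their run, by 1.17-fold to 6.25-fold in the primary table and by 1.21-fold to 1.70-fold in the multi-mapped table. The 5 runs with the lowest primary fold, at 0.706 to 0.730, are not drawn.

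The lowest folds of runs of at least 2 windows were those of pairs, most of them in genes. On chromosome 4 the run at 2736901 to 2737500 within CC1G_10062 held 20.9 and 18.0 CPM in IP, against 27.98 and 27.2 CPM in input, in the primary table, a ratio of 0.706, and both windows were called lower. Its multi-mapped values were 16.0 and 15.8 CPM in IP, against 19.1 and 17.9 CPM in input, a ratio of 0.858, with 0 windows called by edgeR. The runs on chromosome 3 at 2786701 to 2787300 (CC1G_03296) and 365101 to 365700 (no gene model) had primary ratios of 0.722 and 0.728, with 1 window called lower in each. The runs on chromosome 3 at 102901 to 103500 (CC1G_14060) and chromosome 8 at 79501 to 80100 (CC1G_05347) had ratios of 0.725 and 0.730, with 0 windows called by edgeR. In the multi-mapped table the last 2 runs had overlapping IP and input columns and ratios of 0.906 and 0.974.

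By position, the windows were more frequent near chromosome ends and on supercontigs. Within 20 kb of a chromosome end 11.4% of windows were over-represented (199 of 1742), at 20 to 100 kb 4.70% and farther away 2.53%. On supercontigs the share was 11.6% (135 of 1161 windows), spread over 26 of the 54 supercontigs. Among chromosomes it was highest on 11 (4.11%) and 6 (3.86%) and lowest on 7 (2.00%). The windows near ends and on supercontigs were also the deeper ones, with medians of 871 and 842 multi-mapped input counts, against 625 for those over 100 kb from an end. IP over input in the primary table had median log2 values of 0.31 within 20 kb of an end and 0.34 on supercontigs, where all windows had 0.14 and 0.29. At 20 to 100 kb from an end the median was -0.16, against -0.01 for all windows there. Of the over-represented windows within 20 kb, 61 (30.7%) were higher in IP, where 26.1% of all windows there were, and 17 (8.54%) by multi-mapped counts, where 16.0% were. At 20 to 100 kb 17 (5.23%) were higher in the primary table, where 13.1% of all windows there were, and 15 (4.62%) in the multi-mapped table, where 9.99% were. On supercontigs 40 (29.6%) were higher in the primary table, where 31.2% of all windows there were, and 18 (13.3%) in the multi-mapped table, where 21.1% were.

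Most of the windows lay in genes. Of the 3323 on chromosomes, 2414 (72.6%) had their midpoint in a gene model, where 65.3% of all windows did, which is 3.10% of the windows inside genes and 2.20% of those outside. The median log2 fold change of IP over input in the primary table was -0.15 inside genes and -0.02 outside, against -0.04 and 0.05 for all windows. Of 13497 genes on the chromosomes 1524 (11.3%) overlapped at least 1 over-represented window, all of them protein-coding. None of the 314 windows over the 255 tRNA genes was in the set, and the highest r there was 0.48. If the windows are taken as independent, that allows a share of up to 0.955%, but neighbouring windows may share reads. The share chosen changed with depth, and the depth of the tRNA windows was not compared, so nothing is read from their absence. Ribosomal RNA genes lie in the gene table on sequences that could not be tied to the windows and were not analysed here.

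In 18 genes of at least 3 windows every window was over-represented, and 16 of the 18 had a fold above 1 in each table. The gene table gives locus tags without product names, so the proteins are not described. The longest was CC1G_15488 (7723 bp, 26 windows) in the run on chromosome 6, with 1026 and 1039 CPM in IP, against 841 and 808 CPM in input, in the primary table, 1.25-fold. CC1G_13119 on chromosome 4 (1765 bp, 7 windows) had the highest primary fold of the 18, with 417 and 425 CPM in IP, against 260 and 249 CPM in input, 1.66-fold. By multi-mapped counts it held 201 and 217 CPM in IP, against 153 and 152 CPM in input, 1.37-fold. CC1G_13450 on chromosome 8 had the highest r of the 18 (1.22), with input at 5.87 times the genome median by primary and 2.61 times by multi-mapped counts. The exceptions were both on chromosome 2, CC1G_03793 with folds of 0.960 and 0.976 and CC1G_04908 with 0.806 and 0.958. CC1G_04908 held 37.7 and 29.4 CPM in IP, against 42.5 and 40.7 CPM in input, in the primary table, and 1 of its 3 windows was called lower.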

How the data were processed

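Per the labels' protocols, DNA of oidia was purified with a kit for plant DNA, and the libraries were of the TruSeq type. Bismark 0.6.4, Bowtie 0.12.7 and edgeR stand in the submitters' processing notes without their roles. The build, the extension of reads and the handling of duplicates are not stated there. The authors deposited 2 tables of counts per 300 bp window, per the file headers. A further 8 per-sample columns were not used. The authors' deposited log2 fold changes, which run input over IP, and adjusted p-values served only to count their calls. IP columns of the multi-mapped table were recognised by lacking the word input that the others carry.

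IP was compared with input in each table with edgeR 4.0.16 (R 4.3.3). The quasi-likelihood test was run on 2 IP and 2 input columns with TMM scaling, for windows of 10 or more counts in total. Calls had an adjusted p (Benjamini-Hochberg, over all windows tested) under 0.05. DESeq2 1.42.0 was the alternative. The fits were tested on simulated data. CPM values are counts scaled to 1000000 per column after TMM, summed over the windows of a run, and a fold is the IP mean over the input mean. Named regions are the 8 longest runs, the 8 with the highest r, the 5 with the highest and the 5 with the lowest primary fold (each among runs of at least 2 windows), and the 5 windows with the highest r. The windows, lists, bins and tests were chosen with earlier results of these data known. Gene models came from a RefSeq table of assembly CC3. Input counts correlated best with gene cover at no shift on 13 of 13 chromosomes (0.132 to 0.257, against at most 0.154 beyond 10 windows), and coordinates are those of the window tables. Counting errors cover counting only, since amplified copies of a fragment are not independent.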

Additional observations from a re-analysis of the deposited data

How the results depend on the processing

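The number of windows chosen stayed within 1.5 times of 3458 with a pseudocount of 10, with either input alone, with a count minimum and with totals taken without the deepest 1% of windows (3167 to 4664). It was 25670 with r over 0.25, 139 with r over 1 and 1310 with r centred on its median. Runs numbered 1988 and 1726 with gaps of 0 and 3 windows. DESeq2 size factors and both count filters kept all counts of calls within 1.5 times.

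Of the windows higher in IP in the primary table (292), library totals left 162, an adjusted p under 0.01 left 125, at least 2-fold 57 and r over 1 29, and leaving out a column gave 59 to 503. Of the 62 lower, library totals gave 534, the DESeq2 Wald test 28, an adjusted p under 0.01 2, at least 2-fold 0 and r over 1 0, and leaving out a column gave 1 to 1157. Of the 157 higher in the multi-mapped table, library totals left 102, the Wald test gave 281, an adjusted p under 0.01 79, at least 2-fold 1 and r over 1 14, and leaving out a column gave 18 to 586. Of the 15 lower there, library totals gave 173, the Wald test, an adjusted p under 0.01, at least 2-fold and r over 1 each 0, and leaving out a column 0 to 28. With edgeR 174 of the windows were lower at an unadjusted p under 0.05 by multi-mapped counts and 0 by the Wald test. Over all 120537 windows the Wald test called 0 lower there, with 264 lower at an unadjusted p under 0.05. The causes were not tested, except that stricter thresholds and fewer windows lower a count by construction. Fits without a column take the spread from the other group's pair alone.

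The column tags are shared by the groups. Deviations of same-tagged columns had correlations of 0.207 (primary) and 0.0586 (multi-mapped). With the tag as a replicate block 486 windows (14.1%) were higher and 570 (16.5%) lower in the primary table, where 12.3% and 3.85% of all windows were. By multi-mapped counts the block gave 126 (3.64%) higher and 23 (0.665%) lower, where 6.59% and 0.814% were. At 800 or more counts the block gave 30 lower windows in the primary table, against 0 without it. Of 52 folds of named runs, 24 moved by more than the spread between columns with library totals and 0 crossed 1. Greater depth did not bring smaller errors: the median SE of the primary log2 fold change was 0.324 at r over 3, with a median of 28196.5 primary input counts, and 0.123 at r of 0.5 to 0.6, with 1136.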
